A study of Mus musculus with 4 samples.

Results

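The cell-surface mucin genes Muc1, Muc4, Muc13, Muc16 and Muc20 and the anion channel gene Cftr were followed in endometriotic lesions of mice, in which tissue like the uterine lining grows elsewhere in the body. The genes were taken by name, with every probe set that the platform annotation gave to exactly 1 of these symbols: 11 probe sets for 6 genes, of 18193 genes on the array. Gene expression was measured on 4 Affymetrix arrays, 2 of lesions from mice fed a high-fat diet and 2 of lesions from control mice fed a casein diet. The title describes the mice as an immunocompetent model. Their strain and age, the time on the diet and the number of animals or lesions behind each array are not stated there. The title frames the question as lesion redox and inflammatory status under the high-fat diet, and the labels allow 1 contrast, high-fat diet minus casein diet.

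The genes were selected on this contrast, after the intensities of Cftr and Muc4 had been seen among its larger differences, so their values are a description and no test of them is given. An exact two-sided permutation test of 2 arrays against 2 could not go below p = 0.333 in any case. Values are the deposited linear intensities, and differences are on the log2 scale, with the casein diet subtracted from the high-fat diet. Intensities of different probe sets do not rank the genes against each other, because probes differ in brightness.

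Membrane mucins are long glycoproteins anchored in the apical membrane of epithelial cells. Their outer part is rich in serine and threonine, carries dense O-linked sugars and forms a lubricating, anti-adhesive layer, while the short tail inside the cell can take part in signalling. In the uterus Muc1 covers the luminal epithelium and is known as a barrier to embryo attachment. Cftr opens in response to cyclic AMP and lets chloride and bicarbonate leave epithelial cells, which draws water after them and sets the volume and pH of uterine fluid.

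To show the regulatory sequence in front of genes that were low together, the 250 bases upstream of the RefSeq start (GRCm38.p6) are given for Muc1, Muc4 and Cftr, and for Muc13, which was not low with them. All 6 genes had an entry, and Muc13 had 2 starts, of which the first is shown. Lower-case letters are the sequence 5′ to 3′ on the gene's strand, and capitals mark matches to any of 6 motifs searched on both strands.
Muc1, chr3:89228806-89229055, plus strand: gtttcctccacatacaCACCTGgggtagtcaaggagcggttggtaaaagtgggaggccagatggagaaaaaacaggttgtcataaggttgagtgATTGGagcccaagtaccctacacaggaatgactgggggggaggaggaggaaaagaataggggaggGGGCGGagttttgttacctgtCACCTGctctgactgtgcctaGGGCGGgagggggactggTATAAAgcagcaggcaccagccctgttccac
Muc4, chr16:32735636-32735885, plus strand: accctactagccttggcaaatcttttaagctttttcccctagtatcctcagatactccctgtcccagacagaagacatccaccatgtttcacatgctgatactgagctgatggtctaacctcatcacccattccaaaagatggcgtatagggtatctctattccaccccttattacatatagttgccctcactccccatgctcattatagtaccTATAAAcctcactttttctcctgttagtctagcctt
Muc13, chr16:33793787-33794036, plus strand: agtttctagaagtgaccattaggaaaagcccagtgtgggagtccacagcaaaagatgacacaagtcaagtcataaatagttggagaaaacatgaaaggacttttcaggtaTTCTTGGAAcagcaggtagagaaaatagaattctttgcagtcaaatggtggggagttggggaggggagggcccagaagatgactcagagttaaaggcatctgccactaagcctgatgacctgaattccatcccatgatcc
Cftr, chr6:18170437-18170686, plus strand: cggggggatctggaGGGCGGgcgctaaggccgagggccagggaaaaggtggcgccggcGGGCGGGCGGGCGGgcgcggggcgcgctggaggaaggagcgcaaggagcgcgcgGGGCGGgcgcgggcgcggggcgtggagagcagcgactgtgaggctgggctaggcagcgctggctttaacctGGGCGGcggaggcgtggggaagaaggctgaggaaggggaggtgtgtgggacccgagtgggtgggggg

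The motifs were the TATA box TATAAA, the GC box GGGCGG, the CCAAT box CCAAT, a CRE-like site TGACNTCA, the E-box CACCTG and a STAT site TTCNNNGAA. They were searched in the whole 300-base window, which runs 50 bases past the start. Of 32851 windows of that length in the table, 13.6% held the TATA box, 35.7% the GC box, 37.4% the CCAAT box, 8.83% the CRE-like site, 20.2% the E-box and 8.30% the STAT site. Muc1 held 1 TATA box with its last base at position -26, 2 GC boxes, 2 E-boxes and 1 CCAAT box on the opposite strand. Muc4 held 1 TATA box, ending at position -31, and no other match. Cftr held 6 GC boxes, 3 of which overlap one another, and no TATA box. Just past the Cftr start lay a CCAAT box on the opposite strand and a CRE-like site, within this stretch.
Cftr, chr6:18170687-18170716, plus strand: aATTGGaagcaaaTGACATCAcctcaggtc

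The first Muc13 window held 1 STAT site and the second none of the motifs, Muc20 held 1 E-box, and Muc16 had no match. The GC content was 71.3% for Cftr, above or equal to 92.6% of windows, and 55.7% for Muc1, 43.7% for Muc4 and 46.3% for the Muc13 window shown. The 3 genes with the largest differences, Cftr, Muc4 and Muc1, thus had unlike upstream sequences by these measures, and no motif of the 6 was shared by all 3. A match is a string of letters and not evidence of a bound factor.

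Cftr, Muc4, Muc1, Muc20 and Muc16 all had lower intensities on both high-fat diet arrays than on either casein diet array, and Muc13 did not. With no filter, 18.7% of all 18193 genes were lower in this way. The difference of mean log2 values was largest for Cftr (-2.53), followed by Muc4 (-1.84), Muc1 (-1.31), Muc20 (-0.93) and Muc16 (-0.74), against 0.30 for Muc13. Of the 6 genes, 5 passed the filter on dim genes (a geometric mean intensity of at least 33.9), and Muc16 fell under it. Of these 5, 4 were lower without overlap, beside 19.3% of all 12797 tested genes, and 3 were lower without overlap by more than 2-fold, beside 1.61%. The contrast was in view when the genes were chosen, so nothing is read from these counts. The median difference was -1.12 over the 6 genes and -0.005 over all tested genes.

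Cftr read 227 and 113 on casein diet replicates 1 and 2, against 24.2 and 31.9 on high-fat diet replicates 1 and 2. Its means were 170 ± 80.3 and 28.0 ± 5.38 (SD, n = 2 each), a 5.77-fold difference of geometric means. The diets did not overlap, and the lower casein diet array was 3.55-fold above the higher high-fat diet array. Both high-fat diet values were under the filter of 33.9, so Cftr passed it through the casein diet arrays alone, and these folds rest on dim values. With a pseudocount of 16 the difference was -2.01 in place of -2.53. The casein diet arrays themselves differed 2.0-fold, the widest gap within that diet among the 6 genes. The difference was -2.03 without casein diet replicate 1 and -3.03 with replicate 2 left out instead. These values come from probe set 1420579_s_at. The other Cftr probe set, 1427767_a_at, read between 4.11 and 4.81 on all arrays, and only 0.604% of probe sets had a mean as low, so no difference is read from it. Averaging both probe sets moved the Cftr difference to -1.35.

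Muc4, a large mucin whose membrane subunit can bind the receptor ErbB2, read 531 and 383 on casein diet replicates 1 and 2, against 167 and 95.1 on high-fat diet replicates 1 and 2. The means were 457 ± 104 and 131 ± 50.7 (SD, n = 2 each), a 3.58-fold difference of geometric means with no overlap. High-fat diet replicate 2 was the lowest array, and casein diet replicate 2 was 2.30-fold above high-fat diet replicate 1. Of the Muc4 probe sets, 1438555_x_at gave these values, and its suffix marks probes that may bind other sequences as well. A separate probe set, 1427398_at, ordered the arrays in the same way at 93.3, 71.1, 34.3 and 21.5, a difference of -1.58. The third, 1432119_at, lay between 6.35 and 7.0 and differed by 0.05. Averaging all 3 gave -1.13 for Muc4.

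Muc1, the mucin of the luminal uterine surface, read 747 and 506 on casein diet replicates 1 and 2, against 255 and 241 on high-fat diet replicates 1 and 2. The means were 627 ± 170 and 248 ± 9.89 (SD, n = 2 each), a 2.48-fold difference of geometric means. The high-fat diet arrays were nearly equal, and the lower casein diet array was 1.98-fold above the higher of them. Muc1 had 1 probe set, 1449199_at. When 1 array was left out, its difference ranged from -1.59 to -1.03.

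Muc20, a smaller mucin that can bind the receptor Met, was lower by less and less evenly. It read 181 and 148 on casein diet replicates 1 and 2, against 65.6 and 112 on high-fat diet replicates 1 and 2, with means of 165 ± 23.4 and 88.9 ± 32.9 (SD, n = 2 each). The high-fat diet arrays differed 1.71-fold, and the gap between the diets was 1.32-fold at its narrowest. Its difference was -0.55 without high-fat diet replicate 1 and -1.32 with replicate 2 left out instead, so replicate 1 sets much of its size. The dimmer probe set 1442960_at read 33.2 and 31.0 on casein diet replicates 1 and 2, against 19.9 and 24.1 on high-fat diet replicates 1 and 2, with the same order of arrays. The RefSeq spans of Muc20 and Muc4 overlap on opposite strands of chromosome 16. Where their probe sets lie relative to that overlap was not examined here.

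Muc16, which carries the CA125 antigen and binds mesothelin, was dim. Its single probe set, 1432358_at, read 23.6 and 18.1 on casein diet replicates 1 and 2, against 11.5 and 13.3 on high-fat diet replicates 1 and 2, and only 25.1% of probe sets had a mean as low. The diets did not overlap, and a pseudocount of 16 moved the difference from -0.74 to -0.37.

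Muc13, a mucin best known from gut epithelium and blood progenitors, differed from the other mucins. It read 103 and 79.9 on casein diet replicates 1 and 2, against 137 and 90.8 on high-fat diet replicates 1 and 2, and the diets overlapped. The difference of 0.30 was 0.001 without high-fat diet replicate 1 and 0.60 with replicate 2 left out instead. Its other probe set, 1419386_at, stayed between 4.85 and 7.82, near the floor of the array.

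**Figure D1:**
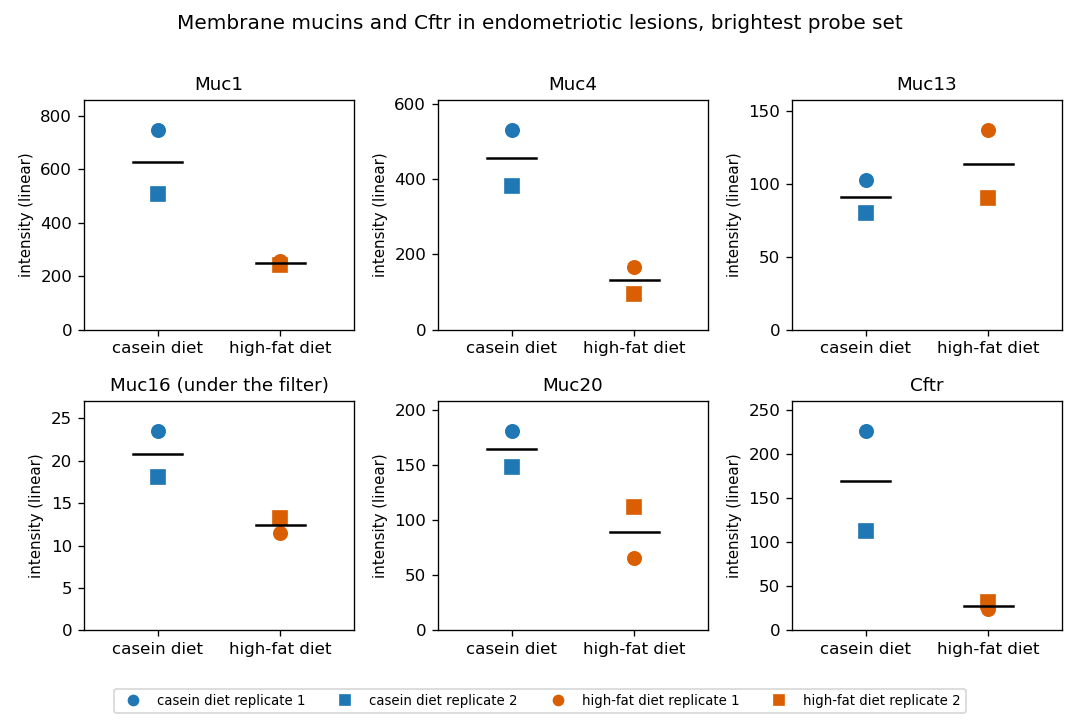
Intensity (linear, axis from 0) of the brightest probe set of each gene, with 1 point per array and a black line at the mean of the 2 arrays of a diet. Cftr, Muc4, Muc1, Muc20 and Muc16 lie lower on both high-fat diet arrays, whereas Muc13 overlaps.

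**Figure D2:**
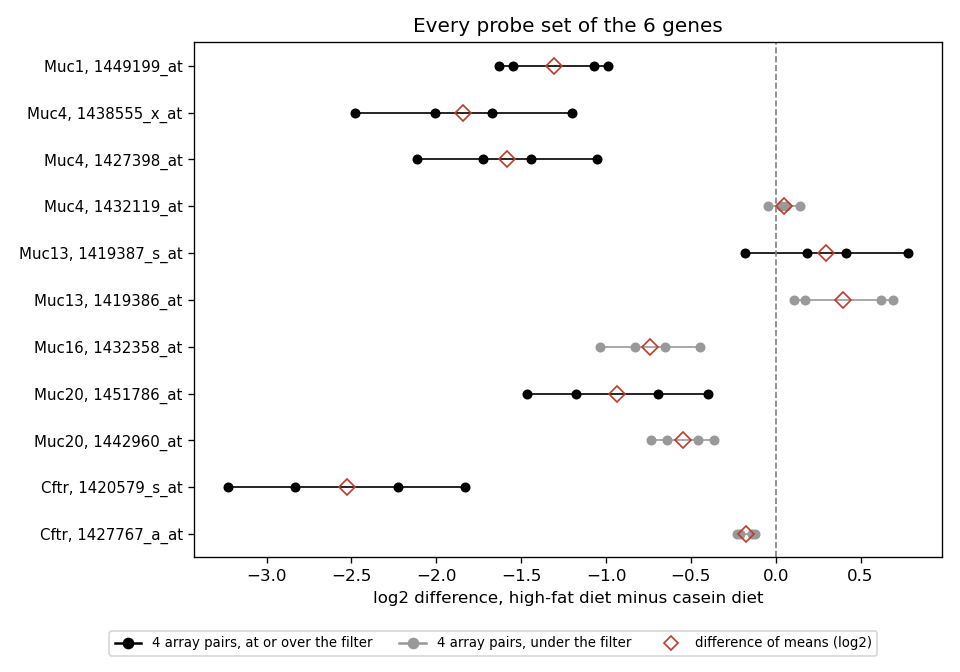
Log2 difference for each of the 11 probe sets, with 4 points for each high-fat diet array minus each casein diet array and a diamond at the difference of mean log2 values. Black marks the 6 probe sets at or over the filter of 33.9 and grey those under it; the grey probe sets of Cftr and Muc4 lie near 0.

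The genes also differed in how they varied within a diet. Casein diet replicate 1 was the higher casein diet array for all 6 genes, by 1.22-fold for Muc20 to 2.0-fold for Cftr. On the high-fat diet the order was mixed: replicate 1 was higher for Muc4, Muc13 and, slightly, Muc1, and replicate 2 for Muc20, Muc16 and Cftr. Among tested members the closest pairs in pattern were Muc1 with Muc20 and Muc1 with Muc4, with root-mean-square differences of 0.37 each after each gene's mean log2 value was subtracted. The farthest pair was Muc13 with Cftr, at 1.47.

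The same measure over 4 arrays named the other tested genes nearest to each member. For Cftr these were Upk3b, a uroplakin gene of mesothelium (0.10), Car2, a carbonic anhydrase that supplies bicarbonate (0.39), and Bdh1, a ketone body enzyme (0.40). Upk3b read 140 and 82.7 on casein diet replicates 1 and 2, against 17.0 and 23.5 on high-fat diet replicates 1 and 2. For Muc4 they were the kinase gene Pak3 (0.12), the receptor gene P2ry14 (0.30) and Slc16a14 (0.31). For Muc1 they were Stc2 (0.07), Ccr7 (0.08) and Trim45 (0.08), for Muc20 Pla2g2d (0.07), Slc28a3 (0.11) and Ogn (0.11), and for Muc13 Parpbp (0.04), Pilrb1 (0.05) and Pilra (0.05). With 4 arrays and 12797 genes, near patterns are easily found, and they are given as a description.

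**Figure D3:**
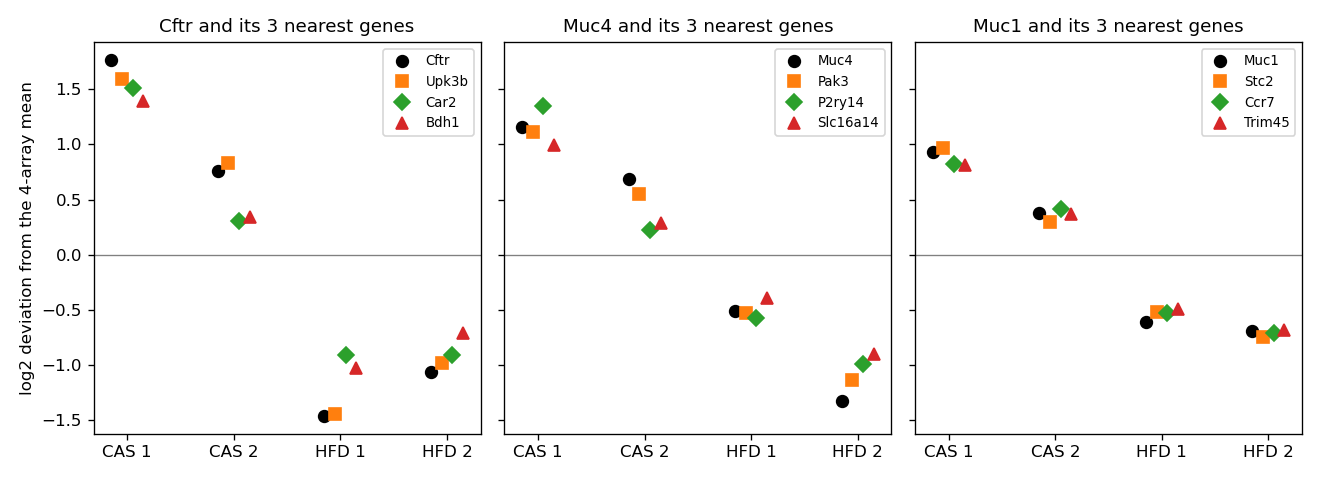
Log2 deviation from the 4-array mean for Cftr, Muc4 and Muc1 (black) and the 3 genes nearest to each, by array (CAS, casein diet; HFD, high-fat diet; points set apart sideways for legibility). Upk3b follows Cftr most closely, with a root-mean-square difference of 0.10.

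Genes that work with the mucins and with Cftr were compared in the fit over all genes. By limma with Benjamini-Hochberg adjustment, 0 of the 12797 genes passed, and so none of any list (smallest adjusted p = 0.823, with 636 genes at an unadjusted p under 0.05, or 4.97%). Of the other mucins, 13 of 20 were on the array and 8 were tested, 5 with a difference below 0 and 3 above. Muc5ac, the secreted mucin of the stomach surface, read 2585 and 137 on casein diet replicates 1 and 2, against 34.9 and 30.5 on high-fat diet replicates 1 and 2 (-4.19, SE 1.54). Its casein diet arrays were far more unequal than those of any membrane mucin followed here. Emcn and Podxl, sialomucins of endothelium, had higher values on both high-fat diet arrays, with differences of 0.65 (SE 0.20) and 0.61 (SE 0.23). With casein diet replicate 1 left out, Muc5ac, Emcn and Podxl differed by -2.07, 0.41 and 0.35, and the median of the list was 0.05 in place of -0.13.

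The enzymes that build O-linked sugars on mucins had no common direction, with 16 of 28 tested genes below 0 and a median of -0.07. Both high-fat diet arrays were lower for 9 of them, or 32.1%, beside 19.3% of all tested genes. Fut2, which adds the fucose of the H antigen to secreted and surface glycans, read 455 and 351 on casein diet replicates 1 and 2, against 124 and 180 on high-fat diet replicates 1 and 2 (-1.42, SE 0.25). Galnt12, which starts O-glycans, differed by -0.95 (SE 0.33), and Gcnt3, a branching enzyme of mucin-producing epithelia, by -1.70 (SE 0.67). Without casein diet replicate 1 Galnt12 and Gcnt3 differed by -0.55 and -1.11, and Gcnt3 by -1.0 when high-fat diet replicate 1 was left out instead. The list median was 0.07 when high-fat diet replicate 1 was left out, 0.04 when it was casein diet replicate 2 and -0.21 when it was high-fat diet replicate 2.

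Partners and sheddases of membrane mucins were divided, 6 of 15 below 0 with a median of 0.02. Msln, the mesothelin gene whose product binds Muc16, read 135 and 50.4 on casein diet replicates 1 and 2, against 31.4 and 21.8 on high-fat diet replicates 1 and 2 (-1.66, SE 0.56). Egfr differed by 0.65 (SE 0.11) and Hgf, the ligand of Met, by 0.34 (SE 0.16). Without casein diet replicate 1 Msln differed by -0.95, and without high-fat diet replicate 1 Hgf differed by 0.17. Among genes of epithelial ion and fluid transport, which act beside Cftr, 14 of 22 were below 0 with a median of -0.21. That median was -0.08 without high-fat diet replicate 1, -0.44 with replicate 2 left out instead, and -0.11 without casein diet replicate 1. Car2 read 5041 and 2182 on casein diet replicates 1 and 2, against 941 and 943 on high-fat diet replicates 1 and 2 (-1.82, SE 0.45). The potassium channel subunit gene Kcne3 differed by -1.19 (SE 0.30), and Scnn1b, a subunit of the sodium channel ENaC, by 0.51 (SE 0.17). Without casein diet replicate 1 Scnn1b differed by 0.32 and Car2 by -1.21.

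The arrays differed in their tissue markers, some of them in the same direction as the members. Endometrial stroma markers all passed the filter (16 of 16). As 12797 of all 18193 genes passed it, this is a weak check of the labelled tissue. The progesterone receptor gene Pgr read 2761 and 2600 on casein diet replicates 1 and 2. On high-fat diet replicates 1 and 2 it read 2032 and 2068 (-0.39, SE 0.09). The array of casein diet replicate 1 stood apart, with 280 genes at least 1 log2 above each other array, against 14 to 77 genes for the others. In bulk tissue, fewer epithelial cells and less RNA per cell cannot be told apart. Of the general epithelium markers, 24 of 25 were below 0 with a median of -0.73, and 10 were lower without overlap (40%, beside 19.3%). Their summed intensity was 33104 and 17137 for the casein diet, against 8272 and 16726 for the high-fat diet. The low value belonged to high-fat diet replicate 1, and without that array the list median was -0.12, against -1.19 with replicate 2 left out instead. The markers with the smallest p were Cldn7 (-0.88, SE 0.14), Tjp3 (-1.13, SE 0.31) and Krt7 (-1.58, SE 0.57). Without casein diet replicate 1, Tjp3 differed by -0.74 and Krt7 by -0.83, while Cldn7 differed by -0.89.

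High-fat diet replicate 2 and casein diet replicate 2 had nearly equal epithelial marker sums, and the marker median differed by 0.03 between them, with 12 of 25 lower. The arrays were not alike in other tissue markers: on high-fat diet replicate 2 the gastric median differed by -3.60 with 11 of 11 lower, the mesothelium median differed by -0.47 with 9 of 12 lower, and the intestinal median by -0.43 with 9 of 11 lower. Between these same arrays Muc4 differed by -2.01, Cftr by -1.83, Muc1 by -1.07, Muc16 by -0.45 and Muc20 by -0.40, while Muc13 differed by 0.18. That is 1 array against 1, chosen after the values were seen, and it has no replicate check. Single epithelial markers went either way. The keratin gene Krt7 read 609 on casein diet replicate 2 and 389 on high-fat diet replicate 2. Cldn7 of tight junctions read 1255 and 750, and the adhesion gene Epcam was nearly equal at 1961 and 1953. Higher on high-fat diet replicate 2 were Spint2 (1928 and 2945) and St14 (438 and 659).

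Endometrial epithelium markers had a median of -0.20, with 11 of 15 below 0 and summed intensities of 17613 and 28700 for the casein diet, against 16758 and 19852 for the high-fat diet. This sum was highest in casein diet replicate 2. The median changed sign when 1 array was left out, to 0.11 for high-fat diet replicate 1 and 0.008 for casein diet replicate 2, and it was -0.53 for high-fat diet replicate 2. Of these markers 20% were lower without overlap, beside 19.3% of all tested genes. They were the iron-binding lipocalin gene Lcn2 (-0.91, SE 0.16), the ligand gene Wnt7a (-0.96, SE 0.21) and the cytokine gene Lif (-0.45, SE 0.20). Lif differed by -0.20 without casein diet replicate 1 and by -0.70 with replicate 2 left out instead. It read 31.9 and 30.6 on high-fat diet replicates 1 and 2, both under the filter, so its difference rests on dim values.

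Gastric mucosa markers were higher on both casein diet arrays for 10 of 11 tested genes (90.9%, beside 19.3%), above all in replicate 1, with sums of 80140 and 10929 against 566 and 596 on the high-fat diet. All 11 tested markers were below 0 (median -5.01, or -4.19 with no filter), Muc5ac among them. Gkn2, Tff1 and Gkn1 had the smallest p, with differences of -8.29 (SE 0.94), -5.89 (SE 0.81) and -7.42 (SE 1.10). Gkn1, Gkn2, Anxa10 and Cldn18 were under the filter on both high-fat diet arrays. They passed it through the casein diet alone, so the share and the tested median rest partly on genes selected for high casein diet values. Sox2, Pgc and Vsig1 were under the filter by their means but over it on casein diet replicate 1. There they read 72.7, 72.4 and 38.3, against 8.05, 18.9 and 9.82 on casein diet replicate 2. On high-fat diet replicates 1 and 2 Sox2 read 6.27 and 6.26, Pgc 17.8 and 17.8, and Vsig1 6.99 and 7.60. The other gastric markers under the filter by their means, among them the acid pump gene Atp4a and the gastric lipase gene Lipf, were under it on every array. The gastric median was -3.58 without casein diet replicate 1. Intestinal markers had sums of 10963 and 1480 for the casein diet, against 656 and 1009 for the high-fat diet. Of those tested, 10 of 11 were below 0 with a median of -2.44, or -0.89 with no filter. The median was -0.68 without casein diet replicate 1 and -4.46 with replicate 2 left out instead. Agr2, Lypd8 and Krt20 had the smallest p, with differences of -5.23 (SE 1.18), -5.05 (SE 1.76) and -3.46 (SE 1.58). These genes, Vil1 and Spink4 were under the filter on both high-fat diet arrays. They passed it through the casein diet alone, so the tested median rests partly on genes selected for high casein diet values. Fabp2 and Phgr1 were under the filter by their means but over it on casein diet replicate 1. Fabp2 read 792 and 28.5 on casein diet replicates 1 and 2, against 7.37 and 7.14 on high-fat diet replicates 1 and 2. Phgr1 read 144 and 17.5, against 13.6 and 15.4. The other intestinal markers under the filter by their means were under it on every array. Among them were the intestinal regulators Cdx1 and Cdx2 and the cadherin gene Cdh17. The part of gastric and intestinal epithelium in the mucin and Cftr values was not tested.

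Mesothelium markers, which include Msln and share Krt8 and Krt19 with the epithelial list, had a median of -0.61, with 8 of 12 below 0 and 7 lower without overlap (58.3%, beside 19.3%). Their sums were 18315 and 7267 for the casein diet, against 4508 and 7753 for the high-fat diet. Upk3b, Cldn15 and Efemp1 differed by -2.43 (SE 0.34), -0.70 (SE 0.10) and 0.50 (SE 0.09), and Wt1 lay between 245 and 311 on all arrays. Upk3b and Msln were under the filter on both high-fat diet arrays, so their differences rest on dim values. Calb2, Lrrn4 and Bnc1 were under the filter by their means. Calb2 lay between 15.9 and 18.3 on all arrays. Lrrn4 read 73.6 and 44.6 on casein diet replicates 1 and 2, against 8.76 and 16.3 on high-fat diet replicates 1 and 2. Bnc1 read 76.1 and 43.0, against 23.2 and 17.0. The part of mesothelium in the Cftr, Muc16 and Msln values was not tested. Exocrine pancreas markers summed to 1965 and 569 for the casein diet, against 544 and 539 for the high-fat diet. Of these, 6 of 7 were below 0, but the median was only -0.06. Cela1 alone read 1443 on casein diet replicate 1. Ctrl, Cela1 and Ctrb1 differed by -0.35 (SE 0.17), -1.64 (SE 1.01) and 0.19 (SE 0.12). Without casein diet replicate 1 Cela1 differed by -0.27. Skeletal muscle markers summed to 32303 on high-fat diet replicate 1 against 2051 to 3109 on the other arrays, and 12 of 13 were above 0, with a median of 2.75, or 0.001 without high-fat diet replicate 1. High-fat diet replicate 1 was also the lowest array for Cftr, Muc20 and Muc16, but not for Muc4, Muc1 and Muc13. The endometrial stroma list had a median of 0.06, with 6 of 16 below 0, and its median was -0.02 without casein diet replicate 1. After Pgr its smallest p belonged to Pdgfra (0.61, SE 0.18) and Hand2 (0.73, SE 0.35). Without casein diet replicate 1 these differed by 0.41 and 0.29.

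**Figure D4:**
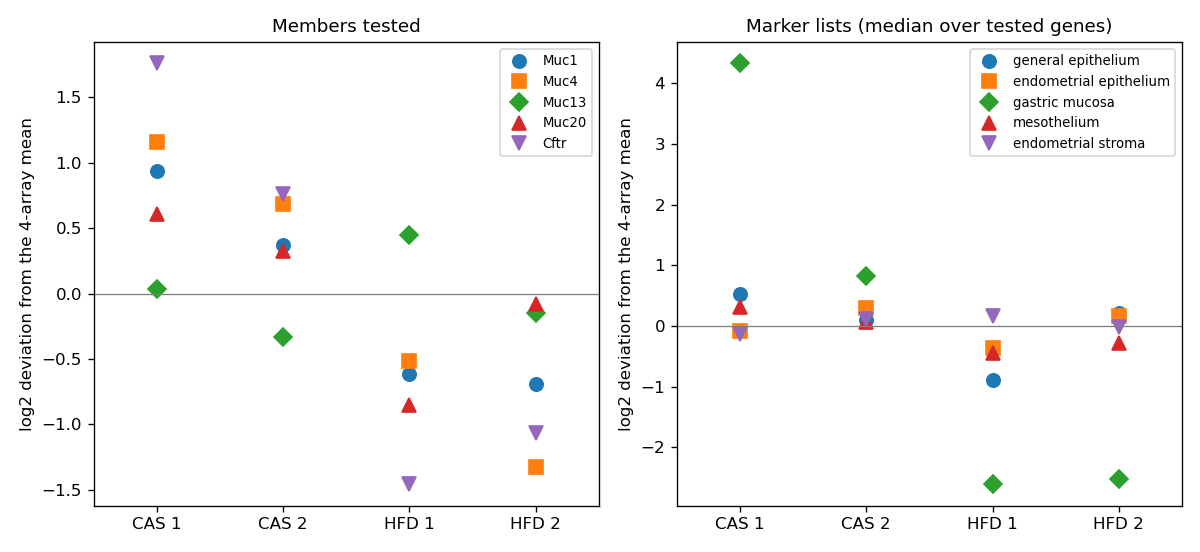
Log2 deviation from the 4-array mean by array, for the 5 tested members (left) and for the median of 5 marker lists (right; the vertical scales differ). Cftr, Muc4, Muc1 and Muc20 lie above 0 on both casein diet arrays and below 0 on both high-fat diet arrays. The gastric mucosa and mesothelium medians have the same signs. The general epithelium median is below 0 only on high-fat diet replicate 1 (-0.90), and the endometrial epithelium and stroma medians have mixed signs within each diet.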

How the data were processed

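RNA from lesions was hybridised to Affymetrix 3′ arrays from 0.1 µg of total RNA, per the labels' protocols. The deposited values are linear probe set intensity values, normalised between arrays by the authors (medians 55.1 to 56.5). The submitters' processing notes name GCOS and RMA without versions, roles or order. No detection calls, scan dates or slides were used. log2 was taken with no pseudocount. Probe sets with 1 gene symbol in the platform annotation (34945 of 45101) were used, and for each of 18193 genes the brightest stood for the gene. Genes at or above the 40th percentile of geometric mean intensity (33.9) were tested in limma 3.58.1 (R 4.3.3), two-sided, with Benjamini-Hochberg adjustment over 12797 genes. The test was checked on simulated data. p-values measure only the spread between these samples, which may be technical, and the number of arrays limits precision.

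Members and gene lists were chosen with earlier results of these data known. List genes are named from the 3 smallest p of each list except skeletal muscle, and pattern neighbours by the 3 smallest root-mean-square differences. Other genes named (Atp4a, Lipf, Cdx1, Cdx2, Cdh17, Calb2, Wt1, Epcam, Spint2 and St14) were picked afterwards as defining or contrasting markers. Anxa10, Cldn18, Vil1, Spink4, Sox2, Pgc, Vsig1, Fabp2, Phgr1, Lrrn4 and Bnc1 were named afterwards to show how the filter acted on their lists. Members were left out of the lists. Alternatives were a pseudocount of 16, no filter, the mean over probe sets, median centring, quantile normalisation, a replicate block, and each array left out. The comparison of the 2 arrays numbered 2 was added after the data were seen. Promoters are RefSeq's (GRCm38.p6), and probe coordinates were not used here. Figures were drawn with matplotlib 3.10.9.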

Additional observations from a re-analysis of the deposited data

How the results depend on the processing

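Cftr, Muc4, Muc1, Muc20 and Muc16 kept a difference below 0 in all 11 alternatives, and 5 members were lower on every high-fat diet array used in each. Most of these settings could not have changed that. The replicate block and the missing filter leave the differences as they are. Leaving out arrays or adding a pseudocount cannot reverse diets that do not overlap. Only the sizes of the differences are informative there. The median difference of the 6 genes, -1.12 with all arrays, ranged from -1.33 to -0.91 when 1 array was left out. It was -0.76 when the arrays numbered 2 were compared alone, a move by more than the spread between replicates. Of the 66 values for single members under alternatives, 6 moved by more than the spread between replicates. They included the means over probe sets for Cftr (-1.35) and Muc4 (-1.13) and the pseudocount of 16 for Muc16 (-0.37). The rest came from the arrays numbered 2 compared alone, for Cftr (-1.83), Muc16 (-0.45) and Muc20 (-0.40). Muc13 stayed above 0 in all 11, but at 0.001 without high-fat diet replicate 1. The number of genes called by limma was 0 in all alternatives that could be fitted except without casein diet replicate 2, where it was 17, so leaving out 1 array gave 0 to 17. With the replicate block it was 0 (smallest adjusted p = 0.911). The replicate differences in the 2 diets had a correlation of -0.02 across 12797 genes, so no pairing was seen. Tissue markers also differed between replicates within each diet, so this check cannot exclude pairing. Of the 132 list medians, 18 moved by more than the spread between replicates. Detection calls were not used, so dim probe sets limit Muc16 and the second probe sets of Cftr and Muc13.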
